A study of Bos taurus with 8 samples.

Results

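The 31 genes described here carry glucose into the cell, break it down to pyruvate, and exchange pyruvate for lactate or pass it to the mitochondrion. They were taken by symbol from the deposited expression table of bovine granulosa cells, in which they make up 31 of 26804 listed genes. By role they are 3 glucose transporters, 9 genes of the upper, energy-consuming part of glycolysis, 3 genes that set the level of fructose-2,6-bisphosphate, 6 genes of the lower, energy-yielding part, 4 genes of lactate formation and transport, 5 genes of the pyruvate dehydrogenase step, and *PGM1* at the branch to glycogen. The members were picked by role and not by a measured value, but with earlier results of these data known.

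The study asked how the season, and with it the heat load, changed the transcriptome of granulosa cells in beef cows. The summer group held 4 libraries (replicates 1, 2, 3 and 5) and the winter group 4 libraries (replicates 1, 3, 4 and 5), each from the pooled RNA of 2 cows. All animals were nonlactating, multiparous *Bos taurus* crossbred cows, given the same progesterone device, GnRH analog and FSH injections before either collection and no other treatment named, and their age was not given in the sources used here. The same cows, kept together in outdoor pens, were used in both seasons, and the cells were pelleted from fluid aspirated at ovum pick-up (OPU), with no sorting named. Each season had a single OPU session, so that season and session cannot be told apart, and which cows made up each pool was not given.

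Granulosa cells surround the oocyte inside the follicle. They are known to be strongly glycolytic: they take up glucose through facilitative transporters of the SLC2A (GLUT) family and release pyruvate and lactate, on which the oocyte, which uses glucose poorly, depends. Flux through the pathway is controlled mainly at uptake, at hexokinase, at phosphofructokinase, which fructose-2,6-bisphosphate activates, and at pyruvate kinase. At its end, pyruvate is reduced to lactate by lactate dehydrogenase, a tetramer of A and B subunits, or enters the citric acid cycle through pyruvate dehydrogenase, which the pyruvate dehydrogenase kinases switch off.

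Levels are given as scaled TPM: TPM recomputed without the 13 mitochondrial protein-coding genes, with a factor per library from the trimmed mean of M-values (TMM). A log2 fold change is summer minus winter on log2(scaled TPM + 1), so that changes of genes near 1 scaled TPM are understated. Genes were called where the difference reached 2-fold on this scale and the adjusted p was at most 0.05 (limma, Benjamini-Hochberg over the 13046 genes tested). All libraries of a season came from its 1 session, so p-values measure only the spread between these pools. The paper gives an average number of clean reads over the granulosa libraries but not the number of each library. The depth behind each single value is therefore unknown. In bulk RNA, fewer cells of a type and less RNA per cell cannot be told apart.

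The libraries differed in more than the season. Mitochondrial genes held 50.7 to 87.7% of the deposited TPM in summer, against 85.1 to 92.0% in winter. Granulosa markers were abundant in all 8 libraries, with a summed level of 20991 to 59870 scaled TPM in summer against 11159 to 15036 in winter and 6 of 8 past the adjusted p, all higher. Most of that sum was *INHA*, the inhibin alpha subunit (means of 29371 and 10544 scaled TPM), whereas *FOXL2*, a defining transcription factor of granulosa cells, had the opposite sign and did not pass (61.1 scaled TPM in summer and 97.6 in winter, log2 fold change -0.75, adjusted p = 0.0991). Of the 2 theca markers, *CYP17A1*, the defining steroidogenic enzyme, averaged 0.019 scaled TPM in summer and 0.572 in winter, but *INSL3* was abundant, at 87.9 to 260 scaled TPM in summer against 58.0 to 449 in winter. The 9 pan-leukocyte markers were all lower in summer, at a sum of 28.9 to 110 scaled TPM against 272 to 505 in winter. The summed level of neutrophil markers was 24.9 to 101 scaled TPM in summer against 124 to 2112 in winter, with the highest value in winter replicate 4, that of red blood cell genes 39.0 to 98.9 against 566 to 42418, that of surface epithelium markers 176 to 462 against 1000 to 2883 and that of fibroblast markers 73.6 to 176 against 339 to 1055. Ciliated epithelium markers summed to 27.1 to 113 scaled TPM in summer against 0.50 to 12.2 in winter, oocyte genes to 9.995 to 17.4 against 0.47 to 1.49, and endothelial markers to 2.13 to 4.75 against 2.34 to 7.68. Leukocytes and red blood cells are glycolytic too, and the part of these other cells in the results below was not tested.

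Of the 31 genes, all of which entered the test, 5 were higher and 5 lower in summer by the adjusted p, or 16.1% each way, against 11.0% higher and 10.2% lower among all genes tested. With the 2-fold limit, 4 were called higher (*SLC2A1*, *SLC16A1*, *SLC16A3* and *PDK4*), 12.9% of the members against 6.14% of all genes, and 2 were called lower (*PFKP* and *PFKFB2*), 6.45% against 6.67%. The median log2 fold change of the 31 genes was -0.11, beside 0.03 over all genes tested. The called genes encode transporters of glucose and of lactate, a pyruvate dehydrogenase kinase and 2 enzymes at the phosphofructokinase step. Among all genes tested 12.8% were called in either direction, so these positions in the pathway are given as a description only.

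**Figure D1:**
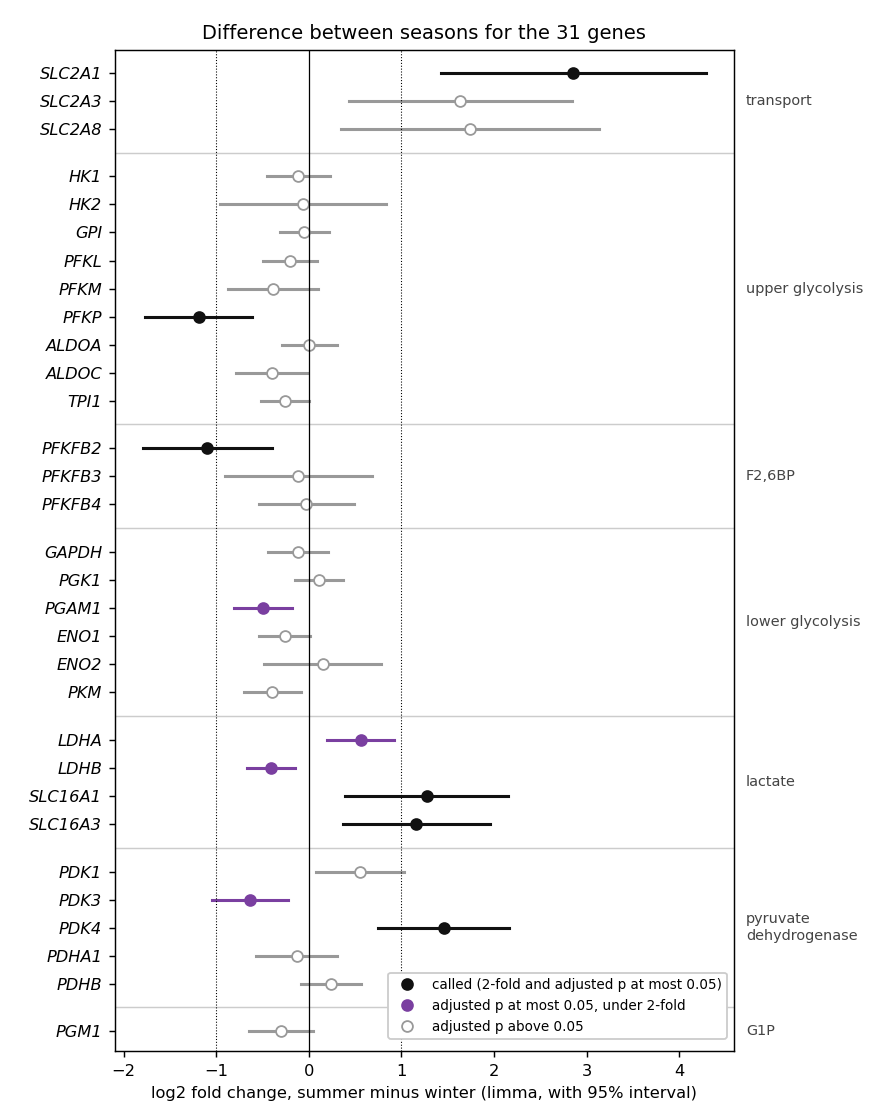
Log2 fold change, summer minus winter, of the 31 genes with its 95% interval (limma), ordered by role from glucose transport at the top to *PGM1* at the bottom. Filled black points mark the 6 called genes, purple points the 4 genes past the adjusted p with less than a 2-fold change, and open points the other 21; the dotted lines mark 2-fold. On the deposited TPM, where the median of all genes is 0.89, the 5 filled points left of 0 lie right of 0.

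The total RNA held by the pathway separated the seasons or not according to the scaling. The summed level of the 31 genes was 12174 to 14313 scaled TPM in summer against 13140 to 15663 in winter, with means of 13305 ± 927 and 14382 ± 1037 (SD, n = 4 each), so that the seasons overlapped. Without the TMM factor, as a share of all nuclear TPM, it was 1.38 to 1.71% in summer against 1.23 to 1.36% in winter, with every summer library above every winter library. Of the 31 genes, 12 averaged 100 scaled TPM or more. Of these 12, 3 passed the adjusted p and 0 were called, with no log2 fold change beyond 0.56 in either direction, while among all tested genes at that level 38.4% passed and 14.3% were called. Of the 19 members under 100 scaled TPM, 7 passed and 6 were called, against 19.4% and 12.6% of all tested genes at that level. Over the 8 libraries the median coefficient of variation was 22.4% for the members and 38.2% for all genes tested, with a range among the members of 8.39% for *GPI* to 150% for *SLC2A1*.

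**Figure D2:**
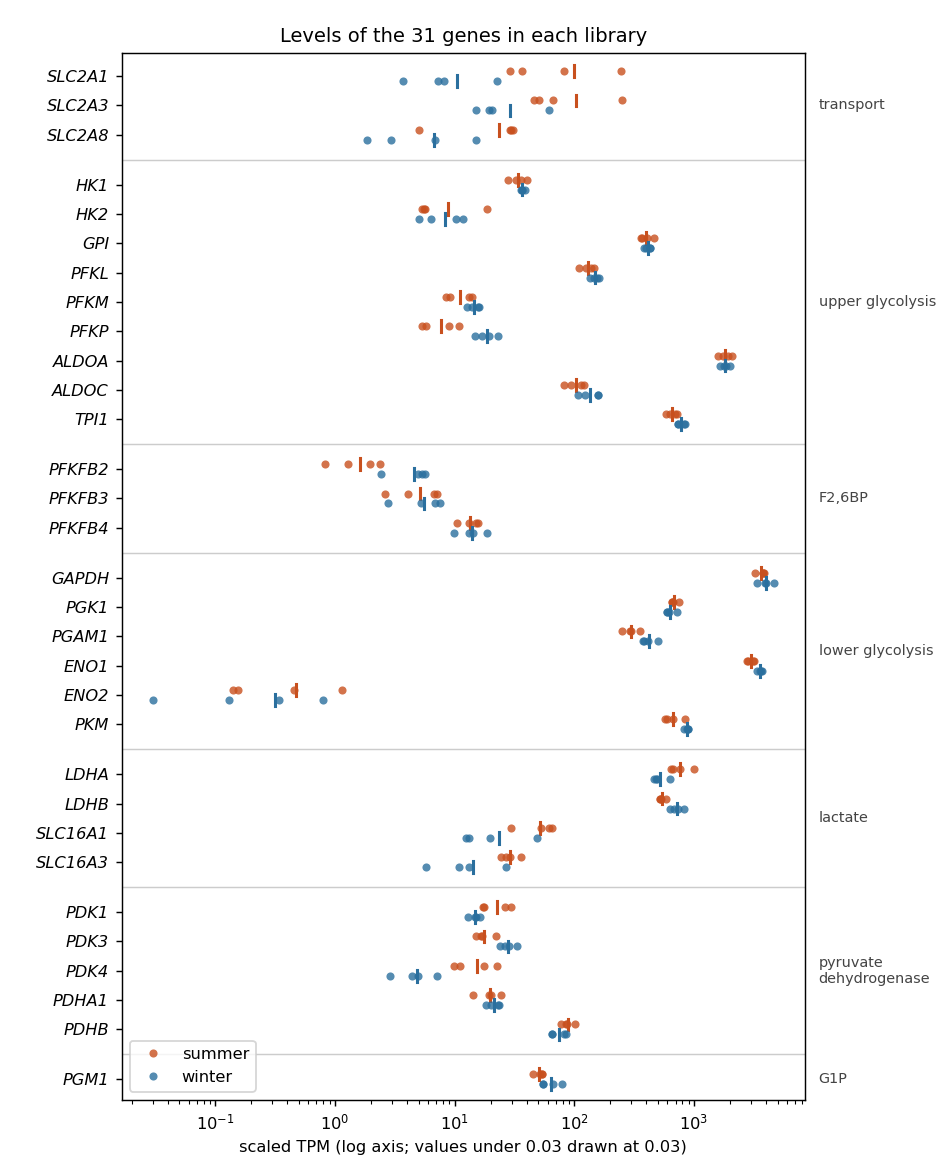
Level of each of the 31 genes in each library in scaled TPM on a log axis, summer points above winter points in each row, with a vertical tick at each season's mean (n = 4 each). The 12 genes at 100 scaled TPM or more differ by less than 2-fold between the season means, whereas *SLC2A1*, *PFKP*, *PFKFB2* and *PDK4* form separate groups; *ENO2* in winter replicate 4 is listed at 0 and drawn at 0.03.

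The direction of the lower genes depends on the scale. On the deposited TPM, in which mitochondrial genes are counted in the total, the median log2 fold change of all genes was 0.89, 22 members passed the adjusted p as higher and 0 as lower, and 20 were called higher and 0 lower. Without the TMM factor the median of all genes was 0.28, and 10 members passed as higher and 1 as lower. The 5 higher genes were positive under each scaling tried, relative to that median as well. Of the 5 lower genes, *PFKP*, *PFKFB2* and *PDK3* lay 0.70, 0.85 and 0.21 below the all-gene median on the deposited TPM, and *LDHB* and *PGAM1* lay 0.21 and 0.11 above it. Scaled and deposited TPM differ by a single factor per library, so these distances change only through the pseudocount of 1. It shrinks the differences of low genes, and with them the median, more than those of abundant genes such as *LDHB* and *PGAM1*. "Lower" in what follows means lower on scaled TPM, relative to the other nuclear genes of the library.

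*SLC2A1* encodes GLUT1, the basal glucose transporter of most cell types, and showed the largest log2 fold change of the 31 genes. Its level was 246, 82.3, 28.8 and 36.4 scaled TPM in summer replicates 1, 2, 3 and 5, against 3.67, 7.28, 22.6 and 8.16 in winter replicates 1, 3, 4 and 5. Every summer library lay above every winter library, although the spread was wide: the highest summer value came from replicate 1, the library with the smallest mitochondrial share (50.7%), and the lowest summer and highest winter values were close. The log2 fold change was 2.86 (SE 0.65, 95% interval 1.43 to 4.28, adjusted p = 0.0126), with means of 98.4 ± 101 in summer and 10.4 ± 8.34 in winter. Without summer replicate 1 the log2 fold change was 2.24 (adjusted p = 0.0262), and the gene was called with any of the 8 libraries left out. With the mitochondrial share as a covariate it was 1.31 (adjusted p = 0.203).

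*SLC2A3*, which encodes GLUT3, a transporter of high glucose affinity first known from neurons and also found in leukocytes, had 252, 66.0, 50.4 and 46.4 scaled TPM in summer, against 15.2, 19.5, 61.2 and 20.6 in winter. The seasons overlapped through winter replicate 4 alone, which also held the most neutrophil marker RNA (2112 scaled TPM, with 124 to 256 in the remaining winter libraries). The part of neutrophil RNA in this overlap was not tested. The log2 fold change of 1.64 did not pass (95% interval 0.43 to 2.84, adjusted p = 0.0556), and without winter replicate 4 it was 2.06 (adjusted p = 0.0198). *SLC2A8*, the intracellular transporter GLUT8, had 29.2, 30.9, 5.00 and 29.5 scaled TPM in summer, against 14.98, 6.88, 2.94 and 1.85 in winter. Its summer replicate 3 fell among the winter values, and this library resembled winter in its mitochondrial share (87.7%) and had the lowest granulosa marker sum of the summer libraries (20991 scaled TPM). The log2 fold change was 1.74 (95% interval 0.34 to 3.14, adjusted p = 0.0737), and it passed without summer replicate 3 (2.33, adjusted p = 0.0134) or without winter replicate 1 (2.204, adjusted p = 0.0356).

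The ratio between the transporters was compared within each library. The ratio of *SLC2A1* to *SLC2A3* was 0.976, 1.25, 0.570 and 0.785 in the summer libraries, against 0.242, 0.373, 0.369 and 0.397 in the winter libraries. The difference in mean log2 ratio was 1.33, with no overlap. Over the 70 assignments of libraries to seasons, the exact permutation test (two-sided) gave p = 0.0286, the smallest that 4 against 4 libraries allow, and 0.0762 after adjustment over the 8 isozyme ratios examined, which did not pass. No adjusted value over 8 ratios could fall below 0.05 here unless more than 4 of them reached the smallest p. *SLC2A1* made up 39.8 ± 7.54% of the summed level of the 3 transporters in summer and 21.3 ± 7.32% in winter (SD, n = 4 each).

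In the upper part of glycolysis, 1 of 9 genes (11.1%) passed the adjusted p, against 21.2% of all genes tested. *HK1*, the widely expressed hexokinase that traps glucose as its 6-phosphate, averaged 34.1 ± 5.04 scaled TPM in summer and 36.7 ± 1.34 in winter. The inducible *HK2* averaged 8.74 ± 6.49 and 8.36 ± 3.21 scaled TPM, and its summer mean rested on replicate 3, at 18.5 against 5.31 to 5.60 in the other summer libraries. *GPI*, the isomerase that makes fructose-6-phosphate, had the smallest variation of the members, with 398 ± 44.2 scaled TPM in summer and 410 ± 25.02 in winter. The log2 fold changes of these 3 genes were -0.11, -0.06 and -0.05, and the 95% interval of *GPI* was -0.31 to 0.22.

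Phosphofructokinase commits fructose-6-phosphate to glycolysis, and 1 of its 3 isoform genes passed the adjusted p. The liver type *PFKL*, the main one here, averaged 130 ± 16.1 scaled TPM in summer and 149 ± 11.7 in winter (log2 fold change -0.20, adjusted p = 0.291), and the muscle type *PFKM* averaged 11.1 ± 2.76 and 14.6 ± 1.597 (-0.39, adjusted p = 0.232). The platelet type *PFKP* had 5.37, 9.01, 5.72 and 10.9 scaled TPM in summer, against 23.2, 14.9, 16.8 and 19.4 in winter. All summer libraries were below all winter libraries. *PFKP* was called lower, with a log2 fold change of -1.19 (SE 0.26, 95% interval -1.77 to -0.62, adjusted p = 0.0108), whichever of the 8 libraries was left out, whereas on the deposited TPM it was 0.19, or 0.70 below the median of all genes. With the mitochondrial share as a covariate it was -1.02 (adjusted p = 0.151).

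Within the library, *PFKP* stood at 0.049, 0.066, 0.039 and 0.087 of the level of *PFKL* in the summer replicates, against 0.143, 0.111, 0.115 and 0.126 in the winter replicates. The mean log2 ratios differed by -1.09 with no overlap (two-sided exact permutation test, p = 0.0286, not passing at 0.0762 after adjustment over the 8 ratios), a comparison that the scaling between libraries does not touch. *PFKP* made up 5.23 ± 1.72% of the phosphofructokinase RNA in summer and 10.1 ± 1.08% in winter, and *PFKL* 87.3 ± 2.28% and 81.8 ± 1.15%. The ratio of *PFKM* to *PFKL* differed by -0.21 (exact p = 0.343). *PFKP* is a gene with known expression in blood cells, and the pan-leukocyte marker sum was lower in summer in each library (28.9 to 110 against 272 to 505 scaled TPM); its part in the difference was not tested.

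*ALDOA*, the aldolase that splits fructose-1,6-bisphosphate, averaged 1832 ± 216 scaled TPM in summer and 1819 ± 143 in winter, with a log2 fold change of 0.01 and a 95% interval of -0.29 to 0.30. The minor isoform *ALDOC* averaged 102 ± 17.1 scaled TPM in summer and 136 ± 25.2 in winter (-0.40, adjusted p = 0.121). *TPI1*, which interconverts the 2 triose phosphates, averaged 657 ± 62.1 in summer and 784 ± 54.2 in winter, and every summer library lay below every winter library, by a margin that did not pass (-0.26, adjusted p = 0.146).

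The bifunctional PFKFB enzymes make and remove fructose-2,6-bisphosphate, and all 3 were low. *PFKFB2*, the heart-type enzyme, had 1.95, 0.818, 1.29 and 2.37 scaled TPM in summer, against 5.32, 4.99, 2.44 and 5.67 in winter. The summer values lay below the winter values, by a narrow margin to winter replicate 4. It was called lower, with a log2 fold change of -1.10 (SE 0.31, 95% interval -1.79 to -0.40, adjusted p = 0.0322), but on the deposited TPM it was 0.03, and of the 8 fits with 1 library left out only those without summer replicate 5 (-1.23, adjusted p = 0.0418) or winter replicate 4 (-1.32, adjusted p = 0.0158) kept the call; in the others the adjusted p was 0.0625 to 0.0920. *PFKFB3*, the inducible isoform with the highest ratio of kinase to phosphatase activity, averaged 5.13 ± 2.16 scaled TPM in summer and 5.59 ± 2.13 in winter, and *PFKFB4* 13.5 ± 2.32 and 14.0 ± 3.65. Neither passed (log2 fold changes -0.11 and -0.03, 95% intervals -0.90 to 0.68 and -0.54 to 0.49).

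Of the 6 genes of the lower part of glycolysis, 1 (16.7%) passed the adjusted p, against 21.2% of all genes tested, and 0 were called. *GAPDH*, which oxidizes glyceraldehyde-3-phosphate and is often used as a reference gene, was the most abundant member at 3660 ± 286 scaled TPM in summer and 3976 ± 529 in winter (log2 fold change -0.11, 95% interval -0.44 to 0.21), but its difference was positive on the deposited TPM (1.399), without the TMM factor (0.18) and after quantile normalization (0.50). *PGK1*, the first ATP-yielding enzyme, averaged 683 ± 49.4 and 633 ± 61.0 (0.11, 95% interval -0.15 to 0.37). *GAPDH* and several other glycolytic genes have processed pseudogenes in mammals, and reads shared with such copies cannot be separated in this table.

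*PGAM1*, the phosphoglycerate mutase, had 250.05, 299, 354 and 289.7 scaled TPM in summer, against 415, 385, 503 and 378 in winter. The seasons did not overlap, and the log2 fold change was -0.50 (SE 0.14, 95% interval -0.81 to -0.18, adjusted p = 0.0331), short of 2-fold and positive (1.0004) on the deposited TPM. With 1 library left out the adjusted p was 0.0174 to 0.0998, and 2 of the 8 fits passed. *ENO1*, the main enolase, also had every summer library below every winter library, at 2969 ± 212 and 3558 ± 144 scaled TPM, but did not pass (-0.26, adjusted p = 0.157). The neuronal enolase *ENO2* averaged 0.473 ± 0.472 scaled TPM in summer and passed the expression filter through that season only; in winter it had 0.800, 0.130 and 0.339 scaled TPM and was listed at 0 in replicate 4. *PKM*, pyruvate kinase, had 567, 667, 845 and 597 scaled TPM in summer, against 872, 827, 894 and 888 in winter. Summer replicate 3 alone reached the winter range, and the log2 fold change of -0.40 (adjusted p = 0.0675) passed without it (adjusted p = 0.0112).

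All 4 genes of the lactate step passed the adjusted p, 3 higher and 1 lower, the lower one (*LDHB*) being positive on the deposited TPM. Among all genes tested 21.2% passed in either direction. *LDHA*, the subunit that favors reduction of pyruvate to lactate, had 639, 666, 993 and 763 scaled TPM in summer, against 489, 461, 629 and 480.4 in winter. Every summer value exceeded every winter value, though the closest pair, 639 and 629, differed little. The log2 fold change was 0.56 (SE 0.16, 95% interval 0.20 to 0.92, adjusted p = 0.0349), or 765 ± 161 scaled TPM in summer and 515 ± 76.8 in winter, under 2-fold. *LDHA* was the one member that passed with the mitochondrial share as a covariate (0.84, adjusted p = 0.0464).

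*LDHB*, the subunit more suited to the oxidation of lactate, went the other way. Its level was 522, 581, 531 and 522 scaled TPM in summer, against 632, 823, 734 and 685 in winter. The summer libraries were tightly grouped below all winter libraries, and the log2 fold change was -0.41 (SE 0.12, 95% interval -0.67 to -0.14, adjusted p = 0.0341), whereas it was 1.09 on the deposited TPM. With 1 library left out the adjusted p of *LDHA* was 0.0245 to 0.0892 and that of *LDHB* 0.0337 to 0.0901; *LDHA* passed in 3 of these 8 fits and *LDHB* in 3.

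The 2 subunits crossed over within the library. *LDHA* exceeded *LDHB* in every summer library, with ratios of 1.22, 1.15, 1.87 and 1.46, and *LDHB* exceeded *LDHA* in every winter library, with ratios of *LDHA* to *LDHB* of 0.775, 0.560, 0.856 and 0.702. The difference in mean log2 ratio was 0.97 (two-sided exact permutation test, p = 0.0286, not passing at 0.0762 after adjustment over the 8 ratios), and as a within-library ratio it does not rest on the scaling between libraries. The 2 subunits summed to 1304 ± 155 scaled TPM in summer and 1233 ± 111 in winter, so that the seasons overlapped in lactate dehydrogenase RNA as a whole while the A subunit made up 58.2 ± 5.25% of it in summer and 41.7 ± 4.37% in winter (SD, n = 4 each).

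**Figure D3:**
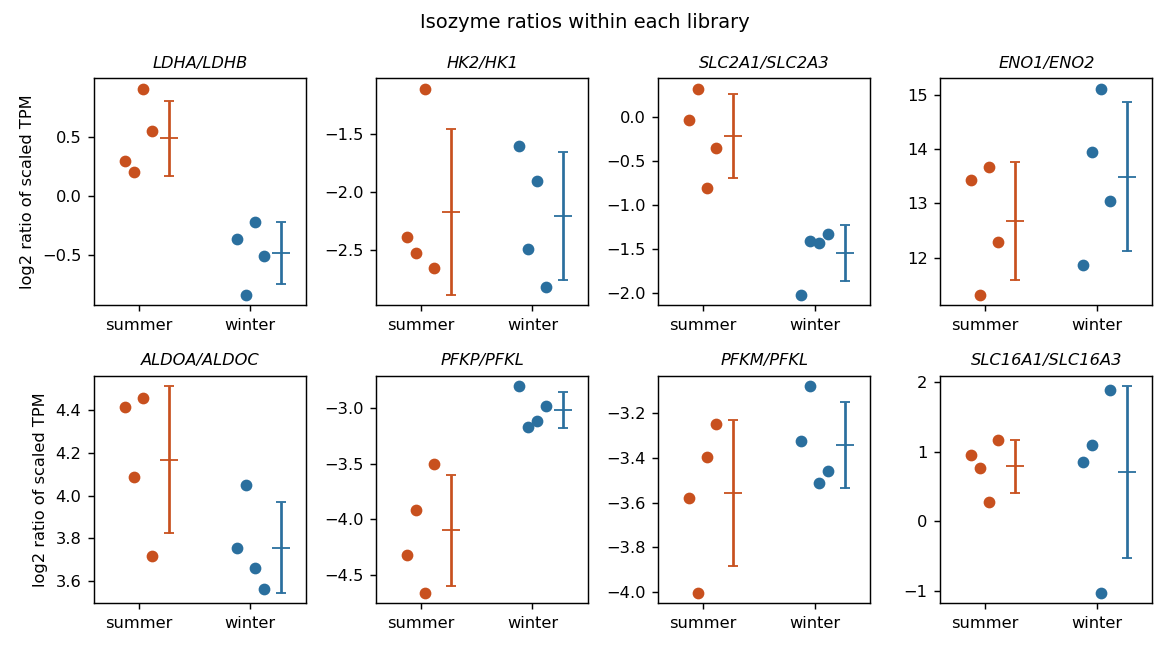
Log2 ratio of 2 isozyme genes within each library for the 8 ratios, summer left of winter, with the mean and SD of each season beside the points (n = 4 each). Summer and winter points do not overlap for *LDHA*/*LDHB*, *SLC2A1*/*SLC2A3* and *PFKP*/*PFKL* (exact permutation p = 0.0286 each, 0.0762 adjusted) and overlap for the other 5; each panel has its own vertical axis.

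The monocarboxylate transporters carry lactate and pyruvate across the cell membrane with a proton, and both were called higher in summer. *SLC16A1*, which encodes MCT1, had 52.6, 61.1, 29.6 and 64.8 scaled TPM in summer, against 19.6, 12.5, 13.2 and 48.6 in winter. *SLC16A3*, which encodes MCT4, a transporter adapted to lactate export, had 27.1, 35.9, 24.5 and 28.9 scaled TPM in summer, against 10.8, 5.77, 26.9 and 13.1 in winter. Each gene overlapped between seasons through 1 winter library, replicate 5 for *SLC16A1* and replicate 4 for *SLC16A3*.

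The log2 fold change of *SLC16A1* was 1.27 (SE 0.40, 95% interval 0.39 to 2.16, adjusted p = 0.0443), and it stayed called without summer replicate 3 (adjusted p = 0.0266) or winter replicate 5 (1.69, adjusted p = 0.00858). In the other 6 fits with 1 library left out its adjusted p was 0.0831 to 0.115. That of *SLC16A3* was 1.16 (SE 0.36, 95% interval 0.36 to 1.96, adjusted p = 0.0430), and of the 8 fits with 1 library left out it stayed called only without winter replicate 4 (1.52, adjusted p = 0.00641), with 0.0553 to 0.113 in the rest. Both calls thus depend on which libraries are in the test. The 2 transporters summed to 81.1 ± 19.6 scaled TPM in summer and 37.6 ± 18.4 in winter. Their ratio showed no separation, with a difference in mean log2 ratio of 0.09 (exact p = 0.886) and, in winter, single values of *SLC16A1* over *SLC16A3* from 0.492 in replicate 4 to 3.71 in replicate 5.

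At the pyruvate dehydrogenase step, 2 of the 3 kinase genes among the members passed the adjusted p, *PDK4* higher and *PDK3* lower, while the kinase *PDK1* and the E1 subunit genes did not. *PDK4*, the kinase induced by fasting, fatty acids and glucocorticoids in several tissues, had 22.5, 17.6, 9.91 and 11.1 scaled TPM in summer, against 4.41, 2.89, 4.96 and 7.15 in winter. All summer libraries were above all winter libraries. The log2 fold change was 1.46 (SE 0.32, 95% interval 0.75 to 2.16, adjusted p = 0.0111), with means of 15.3 ± 5.89 and 4.85 ± 1.76 scaled TPM, and *PDK4* was called in each of the 8 fits with 1 library left out (adjusted p 0.00901 to 0.0404). With the mitochondrial share as a covariate it was 0.96 (adjusted p = 0.198).

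*PDK3* changed in the other direction, with 15.2, 16.9, 22.0 and 16.6 scaled TPM in summer, against 28.6, 23.8, 33.3 and 26.2 in winter. The seasons did not overlap, and the log2 fold change was -0.64 (SE 0.18, 95% interval -1.04 to -0.23, adjusted p = 0.0331), but it was 0.67 on the deposited TPM, 0.21 below the median of all genes there; 2 of the 8 fits with 1 library left out passed (adjusted p 0.0182 to 0.1). *PDK1*, a target of hypoxia-inducible factor in other cells, had 17.6, 17.2, 29.4 and 26.5 scaled TPM in summer, against 15.1, 16.4, 14.7 and 12.9 in winter. Although no summer library fell into the winter range, it did not pass (0.55, 95% interval 0.07 to 1.03, adjusted p = 0.0933).

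The 3 kinases among the members together had 55.6 ± 4.08 scaled TPM in summer and 47.6 ± 4.16 in winter. Within that sum *PDK3* held 27.5 to 35.9% in summer, against 55.3 to 62.8% in winter, and *PDK4* 16.2 to 40.7%, against 6.72 to 15.5%. These shares were examined after the values had been seen and are given without a test. *PDK2*, a kinase gene outside the members, is part of neither the sum nor the shares. It averaged 13.4 ± 3.24 scaled TPM in summer and 17.6 ± 3.66 in winter (log2 fold change -0.37, adjusted p = 0.280). The E1 subunits of the enzyme itself, *PDHA1* and *PDHB*, averaged 19.6 ± 4.23 and 87.8 ± 9.95 scaled TPM in summer, against 21.2 ± 2.32 and 74.4 ± 10.9 in winter (log2 fold changes -0.13 and 0.24, 95% intervals -0.57 to 0.31 and -0.09 to 0.57). *PGM1*, which links glucose-6-phosphate to glycogen through glucose-1-phosphate, averaged 51.0 ± 4.25 in summer and 63.8 ± 11.7 in winter (-0.30, adjusted p = 0.193), all summer libraries being below all winter libraries.

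**Figure D4:**
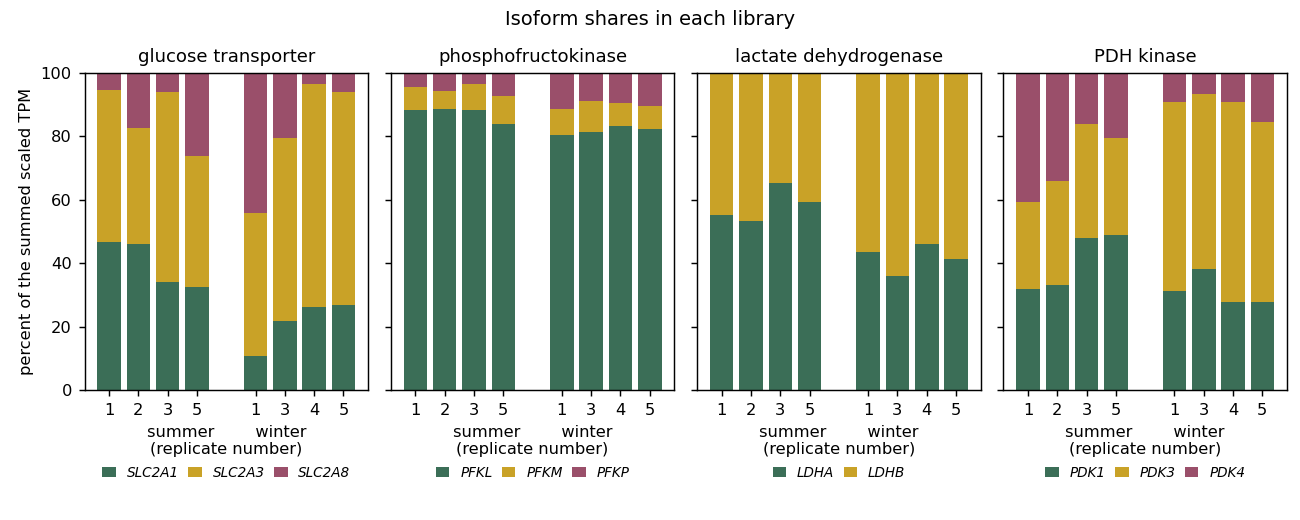
Share in percent of each isoform in the summed scaled TPM of its family, per library, with the summer replicates left of the winter replicates. Only isoforms among the 31 genes are counted, so the kinase *PDK2* is left out. *LDHA* takes 53.4 to 65.2% of the lactate dehydrogenase RNA in summer and 35.9 to 46.1% in winter, and *PDK3* is the largest of the 3 kinases in every winter library and in no summer library.

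Over the 31 genes, every summer library lay above every winter library in 4 (12.9%, against 13% of all genes tested) and below in 8 (25.8%, against 11.3%). The 4 were *SLC2A1*, *LDHA*, *PDK1* and *PDK4*, and the 8 were *PFKP*, *TPI1*, *PFKFB2*, *PGAM1*, *ENO1*, *LDHB*, *PDK3* and *PGM1*. The separation of these 8 is that of the scaled TPM, and on the deposited TPM the log2 fold change of each was positive, as were those of *TPI1* and *ENO1* without the TMM factor (0.036 and 0.031) and that of *ENO1* after quantile normalization (0.39). Of the 21 genes that did not pass, 18 had a 95% interval within 2-fold in either direction, and *SLC2A3*, *SLC2A8* and *PDK1* had one that reached beyond it, upward in summer.

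The number of members past the adjusted p, 10 with all libraries, depended on which were in the test. It was 4 without summer replicate 1, 5 without summer replicate 2, 9 without summer replicate 3 and 4 without summer replicate 5, and 5, 5, 7 and 4 without winter replicates 1, 3, 4 and 5. Without summer replicate 1 and winter replicate 4 together, the libraries with the highest *SLC2A1* and the most neutrophil RNA, it was 5, with *SLC2A1*, *SLC2A3* and *SLC16A3* called higher and *PFKFB2* lower. *SLC2A1*, *PDK4* and *PFKP* were the 3 members called in all 8 fits that left out a single library, but with those 2 libraries left out together *PDK4* (1.28, adjusted p = 0.0577) and *PFKP* (-1.10, adjusted p = 0.0534) did not pass.

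**Figure D5:**
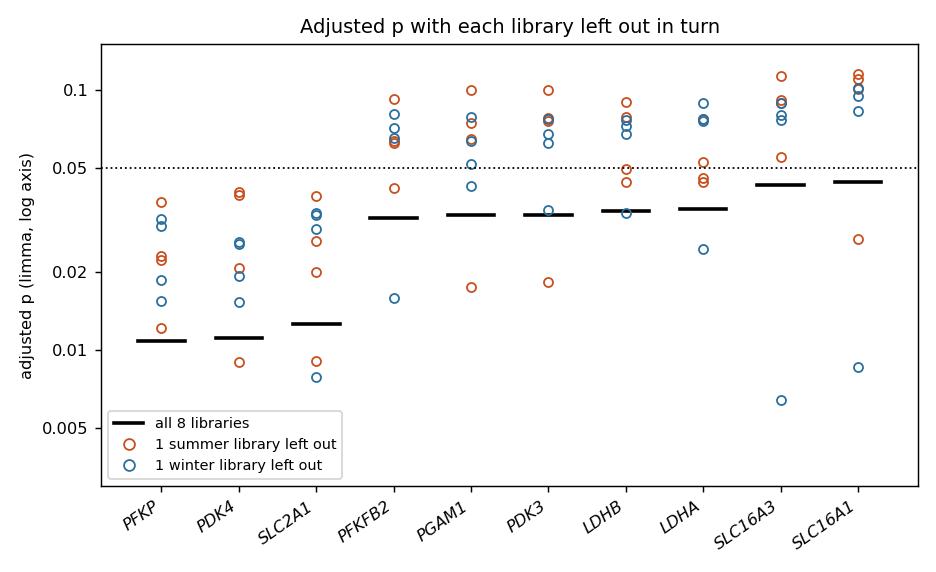
Adjusted p (limma, log axis) of the 10 genes past the threshold with all 8 libraries (black bars) and with each library left out in turn (orange circles, a summer library; blue circles, a winter library), ordered by adjusted p. All circles of *PFKP*, *PDK4* and *SLC2A1* lie below the dotted line at 0.05, while the other 7 genes have circles on both sides of it; on the deposited TPM the log2 fold change of *PFKP*, *PFKFB2*, *PGAM1*, *PDK3* and *LDHB* is positive.

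Of 104 other genes of sugar metabolism in 8 lists, 102 were in the table and 80 could be tested: 6 were higher and 8 lower in summer by the adjusted p, together 17.5%, against 21.2% of all genes tested, and 3 were called in each direction. Among the other glycolytic and gluconeogenic genes, *ADPGK*, a hexokinase that uses ADP, had 73.3, 60.6, 34.8 and 45.9 scaled TPM in summer, against 22.7, 25.2, 15.2 and 18.9 in winter (log2 fold change 1.31, SE 0.25, adjusted p = 0.00558). *G6PC3*, the widely expressed glucose-6-phosphatase, which undoes the hexokinase reaction in the endoplasmic reticulum, had 92.2, 77.6, 44.6 and 67.5 scaled TPM in summer, against 30.7, 23.1, 25.5 and 27.3 in winter (1.33, SE 0.22, adjusted p = 0.00302). *FBP1*, the gluconeogenic fructose-1,6-bisphosphatase that opposes phosphofructokinase, had 9.52, 10.3, 14.8 and 12.4 scaled TPM in summer, against 23.7, 24.6, 23.2 and 38.1 in winter (-1.14, SE 0.22, adjusted p = 0.00647). For all 3 the seasons were fully apart, and all 3 were called. *FBP1* was, however, positive (0.23) on the deposited TPM and fell just short of 2-fold without winter replicate 5 (-0.98, adjusted p = 0.0196). With the mitochondrial share as a covariate the 3 genes did not pass: *ADPGK* 0.82 (adjusted p = 0.112), *G6PC3* 0.92 (adjusted p = 0.069) and *FBP1* -0.87 (adjusted p = 0.131).

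Pyruvate dehydrogenase has further subunits outside the 31 genes, and 2 of them passed. *DLD*, its E3 subunit, which also serves other dehydrogenases, had 67.4, 64.1, 54.4 and 62.4 scaled TPM in summer, against 28.4, 29.0, 36.5 and 25.1 in winter (1.04, SE 0.16, adjusted p = 0.00214). It was called, though without winter replicate 5 its log2 fold change was 0.97 (adjusted p = 0.00848). With the mitochondrial share as a covariate it was 0.91 (adjusted p = 0.0588). *PDHX*, the E3-binding protein, averaged 31.2 ± 2.98 and 17.7 ± 5.89 (0.83, adjusted p = 0.0235), and with 1 library left out its adjusted p was 0.00633 to 0.0674. They were the 2 of 12 tested genes of the list of other lactate and pyruvate handling to pass, both higher.

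Of 14 tested genes of glycogen metabolism, 4 passed and all 4 were lower in summer, 28.6% against 10.2% lower among all genes tested, while on the deposited TPM *PYGL* and *PYGB* were positive (0.60 and 0.38) and *GYG2* and *PPP1R3C* close to 0 (-0.03 and -0.08). The phosphorylases *PYGL* (45.0 ± 7.23 scaled TPM in summer and 82.1 ± 15.2 in winter, log2 fold change -0.85, adjusted p = 0.00896) and *PYGB* (-0.84, adjusted p = 0.0420) release glucose-1-phosphate from glycogen. *GYG2*, a glycogenin that primes it, averaged 1.501 ± 0.485 scaled TPM in summer and 5.09 ± 1.39 in winter (-1.28, adjusted p = 0.0103), and *PPP1R3C*, which brings protein phosphatase 1 to glycogen, 1.007 ± 1.41 and 4.54 ± 1.98 (-1.63, adjusted p = 0.0241). *PYGL* passed with any library left out and *PYGB* in 2 of those 8 fits (adjusted p 0.031 to 0.114). *GYG2* and *PPP1R3C* were called, *GYG2* with any library left out and *PPP1R3C* in 4 of the 8 fits (adjusted p 0.00896 to 0.0680). *PPP1R3C* passed the expression filter through winter only and was listed at 0 in summer replicate 3. Its seasons overlapped, with 3.09 scaled TPM in summer replicate 1 and 2.996 in winter replicate 3. With the mitochondrial share as a covariate *PPP1R3C* passed (-2.53, adjusted p = 0.0259). *GYG2*, *PYGL* and *PYGB* did not (adjusted p = 0.0658, 0.159 and 0.323). In the other lists, 1 of 8 pentose phosphate genes passed (*TALDO1*, lower), as did 2 of 13 citric acid cycle genes (*SUCLA2* higher and *IDH3B* lower), 1 of 9 genes of the NADH shuttles (*MDH1*, higher), 1 of 4 other glucose transporters (*SLC2A6*, lower) and 0 of 7 hexosamine genes. With 1 library left out, *TALDO1* passed in 6 of the 8 fits, *MDH1* in 4, *IDH3B* in 3, *SUCLA2* in 2 and *SLC2A6* in 1. Of those lower, *TALDO1* and *IDH3B* were positive on the deposited TPM (1.03 and 0.99). *SLC2A6* averaged 0.445 scaled TPM in summer, with 0 in replicate 2, and 1.67 in winter, and it passed the expression filter through winter only. Its adjusted p was 0.0526 with no filter and 0.0922 where a mean of at least 1 scaled TPM was required. *SLC2A2*, *G6PC1*, *G6PC2*, *PFKFB1*, *SLC16A8* and *GYS2* were listed at 0 in all 8 libraries.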

How the data were processed

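Granulosa cell RNA was poly-A selected and sequenced in 8 libraries, 4 summer and 4 winter. The deposited values are TPM. The paper names CLC Genomics Workbench for trimming, mapping and TMM normalization, whereas the submitters' processing notes list bcl2fastq, Bowtie2 (2.2.2), DESeq2 and the build ARS-UCD1.2. Each deposited library sums to 1000000, so no factor between libraries is left. No coordinates or sequences were used.

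The 13 mitochondrial genes were removed, the remaining genes were brought to 1000000, and TMM factors (30% of M and 5% of A trimmed) were applied. A gene entered the test if its zFPKM exceeded -3 in the 4 libraries of one season or the other. The test was limma 3.58.1 in R 4.3.3 (lmFit, then eBayes with trend), with season as the single term and a pseudocount of 1, and a called gene also had zFPKM above -3 in each library of its higher season. Ratios of isozymes, with 0.1 added to each level, were compared over all assignments of libraries to seasons by an exact permutation test (two-sided), and the 8 p-values were adjusted together. The tests were checked on simulated data. Figures were drawn with matplotlib 3.10.9.

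The members, lists, tests and alternatives were chosen with earlier results of these data known. All 31 members are named, and of the other lists the genes past the adjusted p, up to 4 a list. Libraries were compared as independent groups. Alternatives covered scaling, pseudocount, filter, variance model, library weights, replicate block, mitochondrial share and each library left out.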

Additional observations from a re-analysis of the deposited data

Results flagged for a closer look

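In 6 of 78 groups of 4 libraries, 1 library stood apart from the other 3. Its gap over the range exceeded Dixon's 95% critical value, on log2(scaled TPM + 1) for genes and on the log2 ratio for ratios. Gene levels below are given in scaled TPM, without the log. Chance alone flags about 1 group in 20. Summer replicate 3 was low in *SLC2A8*, the transporter GLUT8, at 5.00 scaled TPM, with 29.2 to 30.9 in the other summer libraries. The same library was high in *HK2*, the inducible hexokinase, at 18.5 scaled TPM, with 5.31 to 5.60 in the others. It had the largest mitochondrial share (87.7%) and the lowest granulosa marker sum (20991 scaled TPM) of the summer libraries, and the part of either in these values was not tested. In winter replicate 4, the library with the most neutrophil marker RNA (2112 scaled TPM), *PFKFB2* was 2.44 scaled TPM, with 4.99 to 5.67 in the other winter libraries. *GAPDH* was 3233 scaled TPM in summer replicate 5, with 3774 to 3850 in the other summer libraries, and *LDHB* was 581 scaled TPM in summer replicate 2, with 522 to 531 in the others. The log2 ratio of *SLC2A1* to *SLC2A3* was -2.02 in winter replicate 1, with -1.43 to -1.32 in the other winter libraries.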

How the results depend on the processing

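The depth of each single library is unknown, so counting error could not be set beside these values. With 4 libraries per season the ratio tests cannot go below 0.0286. Of all genes tested, 1671 were called; 5610 were called on the deposited TPM, 791 at pseudocount 5, 268 with the mitochondrial share as a covariate and 1058 without summer replicate 1 and winter replicate 4 together (a set chosen after seeing the data). In these same fits 20, 2, 0 and 3 members were called higher, against 4, and 0, 0, 0 and 1 lower, against 2. Members past the adjusted p, 10 in the main analysis, were 22 on the deposited TPM, 1 with the mitochondrial covariate, 5 without those 2 libraries, 6 with no filter and 5 with no variance trend. With no filter 2 were called higher and 1 lower, with no trend 2 higher, after quantile normalization 1 lower, and without the TMM factor 0 lower. Of the other pathway genes, 14 passed, and 51 on the deposited TPM, 1 with the mitochondrial covariate and 7 without those 2 libraries. With 1 library left out, 1106 to 1846 genes were called, 2 to 4 members were called higher and 1 to 2 lower, and 4 to 9 members and 6 to 14 other pathway genes passed.

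Log2 fold changes that changed sign on the deposited TPM, where the median of all genes is 0.89, were *HK1* 1.19, *HK2* 0.80, *GPI* 1.44, *PFKL* 1.25, *PFKM* 0.74, *PFKP* 0.19, *ALDOC* 1.06, *TPI1* 1.25, *PFKFB2* 0.035, *PFKFB3* 0.69, *PFKFB4* 1.04, *GAPDH* 1.399, *PGAM1* 1.0004, *ENO1* 1.25, *PKM* 1.11, *LDHB* 1.09, *PDK3* 0.67, *PDHA1* 1.06, *PGM1* 1.09, *FBP1* 0.23, *TALDO1* 1.03, *PYGB* 0.38, *PYGL* 0.60 and *IDH3B* 0.99. Without the TMM factor they were *HK1* 0.17, *HK2* 0.20, *GPI* 0.24, *PFKL* 0.087, *TPI1* 0.036, *PFKFB3* 0.13, *PFKFB4* 0.25, *GAPDH* 0.18, *ENO1* 0.031 and *PDHA1* 0.15, and after quantile normalization *GPI* 0.014, *GAPDH* 0.50 and *ENO1* 0.39. With the mitochondrial covariate they were *HK1* 0.11, *HK2* 0.61, *GPI* 0.089, *PFKFB4* 0.17 and *PDHA1* 0.19, with library weights *ALDOA* -0.010, and without summer replicate 1 and winter replicate 4 *HK2* 0.19, *GPI* 0.011 and *PFKFB4* 0.22. With 1 library left out, sign changes occurred for *HK2* (-0.45 to 0.11), *PFKFB3* (-0.36 to 0.11), *PFKFB4* (-0.17 to 0.11), *PDHA1* (-0.23 to 0.0088), *ALDOA* (-0.049 to 0.076) and *ENO2* (-0.050 to 0.31). The deposited TPM and the values without the TMM factor differ from scaled TPM by a single factor per library, so the sign changes there come with the choice of scale. The cause of the other changes was not tested.

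Replicate numbers 1, 3 and 5 occur in both seasons. Deviations of same-numbered libraries correlated across genes at 0.04, 0.16 and 0.11. The planned rule, that all 3 exceed 0.1, was not met, so the numbers were not taken to pair the libraries. Summer replicates 1, 3 and 5 and winter replicates 3 and 5 each correlated best with their own number. Winter replicate 1 correlated slightly better with summer replicate 2 (0.047) than with summer replicate 1 (0.040). With the replicate block 1426 genes were called, 4 members higher and 1 lower, and 7 other pathway genes passed. These were not the same members: *SLC2A3* was called (2.14, adjusted p = 0.0334), *SLC16A1* (0.99, adjusted p = 0.0390) fell short of 2-fold, and *PFKFB2*, *PGAM1*, *LDHB* and *PDK3* did not pass (adjusted p = 0.0558, 0.152, 0.111 and 0.179). Under the block *HK2* 0.17, *GPI* 0.021, *PFKFB4* 0.063 and *ENO2* -0.17 changed sign. As a mean over the 3 pairs, for which an exact test cannot reach 0.05, the log2 ratio differed by 1.15 for *LDHA*/*LDHB*, 1.19 for *SLC2A1*/*SLC2A3* and -1.18 for *PFKP*/*PFKL*, and it changed sign for *ENO1*/*ENO2* (0.18) and *SLC16A1*/*SLC16A3* (-0.48). Without summer replicate 1 and winter replicate 4 these were 1.12, 1.304, -1.045 and, for *SLC16A1*/*SLC16A3*, -0.54, with a smallest possible p of 0.1. With 1 library left out, the difference was 1.15 to 1.52 for *SLC2A1*/*SLC2A3*, -1.29 to -0.90 for *PFKP*/*PFKL*, -0.32 to 0.24 for *HK2*/*HK1* and -0.49 to 0.48 for *SLC16A1*/*SLC16A3*. In these fits the exact permutation p of *LDHA*/*LDHB* stayed at 0.0286. That of *PFKP*/*PFKL* was 0.0571 without winter replicate 1, 3, 4 or 5. That of *SLC2A1*/*SLC2A3* was 0.0571 without winter replicate 1, 3 or 4. On the deposited TPM the difference was -0.052 for *HK2*/*HK1* and 0.46 for *ENO1*/*ENO2*. The promoter motif count planned was not run, as no promoter sequences were used here.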
